A study of Homo sapiens with 15 samples.

Results

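Genes of mitosis and of the spindle were followed across the 5 conditions of a knockdown and rescue experiment in A673 cells. The set held 40 genes of the 57820 in the deposited count table and was chosen by name from the machinery of the G2/M transition, chromosome segregation and cytokinesis. All 40 were matched to a gene identifier. The lowest count of any of them in any library was 426 reads, so no gene of the set was lost to a filter on low counts.

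A673 is an established cell line of Ewing sarcoma, a bone and soft tissue tumor driven by the fusion transcription factor EWS/FLI, which joins the amino-terminal part of EWS to the DNA-binding part of FLI. The 5 conditions were profiled by RNA-seq with 3 libraries each. iLuc cells carried a hairpin against luciferase and an empty vector, and so kept endogenous EWS/FLI (endo-EF). iEF cells carried a hairpin against EWS/FLI and the same empty vector. The other groups carried the EWS/FLI hairpin and a rescue cDNA: wildtype EWS/FLI (WT-EF), a form without the EWS domain (Δ22), or a partial tyrosine mutant (DAF), in which tyrosines of the amino-terminal repeats of the EWS domain were changed to alanine and a later stretch of repeats was left intact. All 5 conditions shared the same schedule, with the hairpin virus on day 1, puromycin at 2 µg/mL after it, the cDNA virus on day 5, and then both puromycin and hygromycin B (at 400 µg/mL) up to day 16. The constructs were delivered by retrovirus to 1 cell line, and iLuc is the condition without depletion rather than an untreated culture.

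Entry into mitosis is driven by the kinase CDK1 bound to a B-type cyclin and switched on by CDC25 phosphatases. The spindle checkpoint then holds cells in metaphase until each kinetochore is attached to microtubules, after which the anaphase-promoting complex, with CDC20, marks cyclin B for destruction. Transcripts of these proteins accumulate together in the late part of the cell cycle, so their abundance in a culture is widely used as a readout of dividing cells. In these bulk libraries, fewer cells in G2 and mitosis cannot be told apart from less mRNA per such cell.

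The libraries held between 28659475 and 41859880 assigned reads. Levels below are CPM, that is, counts per 1000000 reads of a library, with the library size scaled by edgeR's trimmed-mean factors. FLI1, whose 3′ part is in the fusion, was at 48.0, 47.8 and 52.4 CPM in the iLuc libraries and at 12.9, 15.5 and 15.3 CPM in the iEF libraries. Its level in the rescued groups (16.0 to 36.2 CPM) counts endogenous and introduced messages together, and was not equal between them. In the test described below, FLI1 was higher than in iEF with Δ22 (log2 1.09) and DAF (0.74). With WT-EF the value was 0.27 and not called, and against iLuc WT-EF was lower (-1.49). Whether these unequal levels had a part in the results was not tested. Of the Ewing sarcoma markers examined, PRKCB was at 457.6 to 474.3 CPM and LIPI at 186.5 to 238.4 CPM in iLuc. CD99, a surface marker of this tumor, was at or near 0 in every library. The cause of that low count was not tested, and it does not show that these cells lack CD99. Markers of epithelial, blood and endothelial cells (EPCAM, CDH1, KRT5, PTPRC, CD3E and CDH5) were at 0 to 1.01 CPM throughout. A few libraries stood apart within their groups for the mitosis genes. Within iEF, replicate 2 was the lowest library for 40 of 40 genes. Within Δ22, replicate 1 was the highest for 40 of 40, and within DAF, replicate 3 was the lowest for 38 of 40. Expression of LIPI, a strongly EWS/FLI-dependent gene, also differed among these libraries, at 13.5 CPM in iEF replicate 2 against 3.84 and 3.32 CPM in the others, and at 3.72 CPM in Δ22 replicate 1 against 17.5 and 9.58 CPM; in DAF replicate 3 it was 16.8 CPM, between the other libraries at 8.82 and 25.0 CPM. Its part in the results was not tested, and counts without each library are given beside the results they change.

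The mitosis genes were high in iLuc and iEF, lower in WT-EF, and lowest in Δ22 and DAF. Summed over the 40 genes, the mean level of the 3 libraries was 10595.2 CPM in iLuc (SD 186.8) and 10404.0 CPM in iEF (SD 1103.1). It was 8476.8 ± 127.4 CPM in WT-EF, 7846.2 ± 1346.1 CPM in Δ22 and 7108.5 ± 864.5 CPM in DAF (SD, n = 3). On the scale of the mean log2(CPM + 1) over the 40 genes, the iEF libraries were at 7.65, 7.43 and 7.71 and the WT-EF libraries at 7.32, 7.33 and 7.28. These did not overlap. The Δ22 libraries were at 7.43, 7.15 and 6.94 and the DAF libraries at 7.13, 7.14 and 6.81, so that these groups overlapped each other, and Δ22 also overlapped WT-EF and reached the lowest iEF library. By group mean, 33 of the 40 genes were lowest in DAF, 5 in WT-EF, 1 in Δ22 and 1 in iLuc. The highest mean was in iLuc for 21 genes, in iEF for 18, and in DAF for 1, CDC25B.

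**Figure D1:**
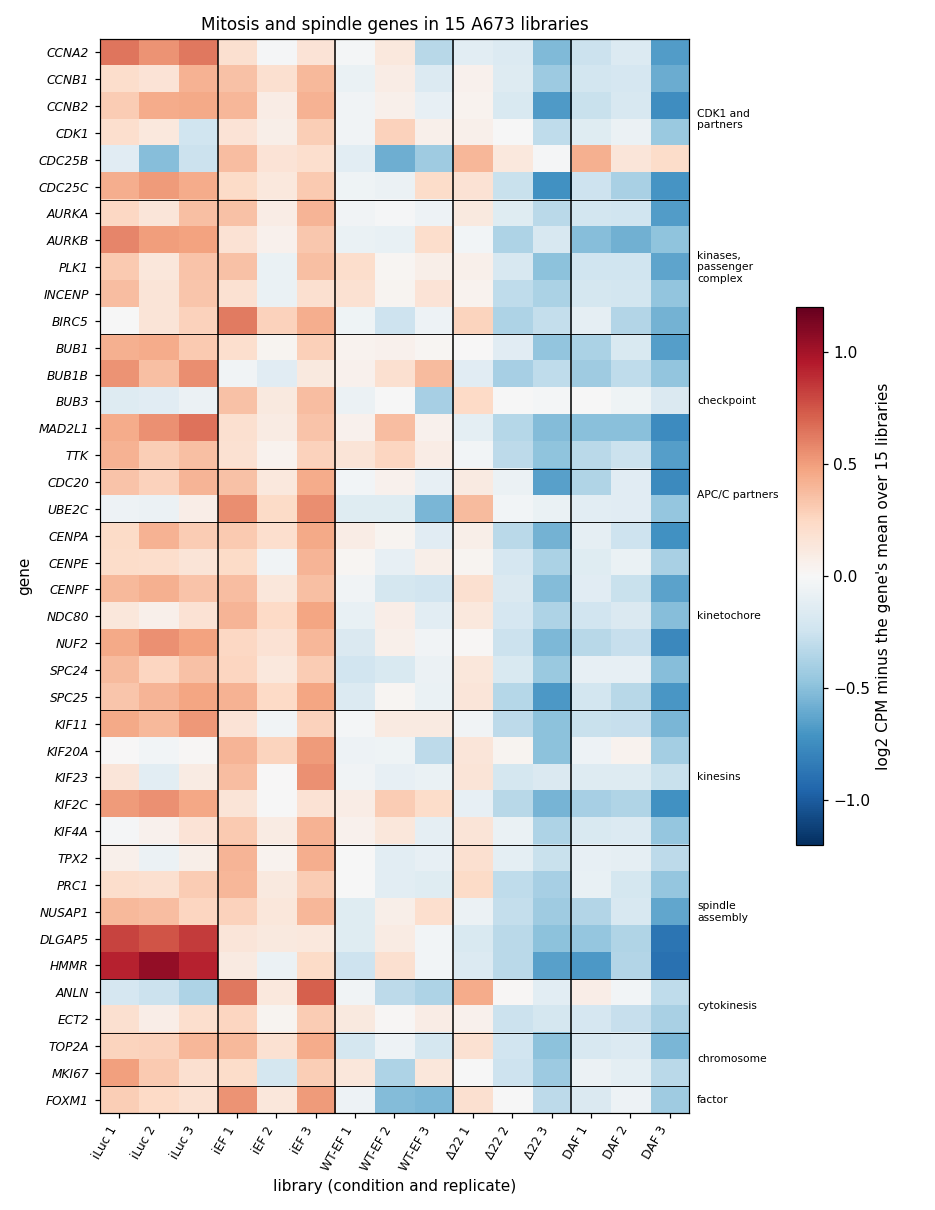
Each row is 1 of the 40 genes, grouped by role, and each column 1 of the 15 libraries; the color gives log2 CPM minus the gene's mean over all 15 libraries. Blue fills most of the DAF columns and of the columns of Δ22 replicates 2 and 3. The iLuc columns are darkest red for HMMR and DLGAP5, and iEF replicate 2 is the palest of the iEF columns.

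**Figure D2:**
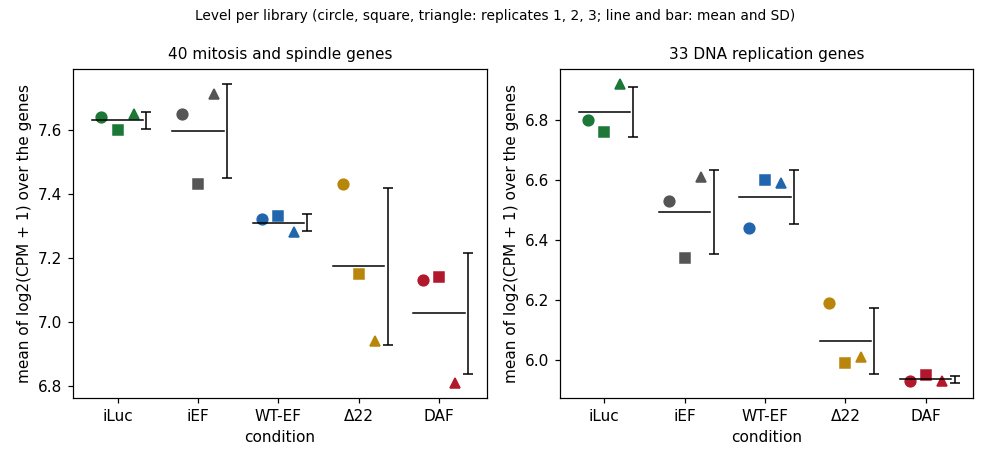
Mean of log2(CPM + 1) per library over the 40 mitosis genes (left) and over 33 DNA replication genes (right), with symbols for replicates 1 to 3, a line for the group mean and a bar for the SD (n = 3). The vertical axes do not start at 0. For the mitosis genes the 3 WT-EF libraries sit between 7.28 and 7.33, below all iEF libraries, and Δ22 spreads from 6.94 to 7.43.

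Levels differed widely between genes. Per kilobase of exon, the most abundant message in iEF was CCNB1, which encodes cyclin B1, at 269.5 ± 19.9 CPM per kb (SD, n = 3). ANLN, the gene of the contractile ring protein anillin, followed at 118.6 ± 24.5 CPM per kb, and UBE2C, the ubiquitin-conjugating enzyme of the anaphase-promoting complex, was at 116.2 ± 14.7 CPM per kb. ANLN and UBE2C did not differ beyond their spread. The least abundant were CDC25C at 8.83 ± 0.582, FOXM1 at 11.6 ± 1.71 and BIRC5 at 14.3 ± 1.71 CPM per kb. In DAF, CCNB1 was again the highest, at 172.4 ± 25.5 CPM per kb, and CDC25C again the lowest, at 5.58 ± 0.881 CPM per kb.

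Cell cycle promoters often carry 2 short elements: the NF-Y box, read here as CCAAT, and the cell cycle homology region, read here as TTTGAA, which is bound by the MuvB complexes that gather B-MYB and FOXM1 at G2/M genes. RefSeq windows from 250 bases before to 50 after the annotated start (GRCh38.p14) were at hand for 33 of the 40 genes, 42 windows in all, and 5 genes had several. The 130 bases directly upstream of the start are printed for 3 cyclins, a kinase, a checkpoint gene and CDC20, all with a single window, to show where these elements lie. They are CCNA2 (chr4:121823884-121824013, minus strand), CCNB1 (chr5:69167020-69167149, plus strand), CCNB2 (chr15:59105016-59105145, plus strand), PLK1 (chr16:23678759-23678888, plus strand), BUB1 (chr2:110678064-110678193, minus strand) and CDC20 (chr1:43358851-43358980, plus strand). Each runs 5′ to 3′ on the gene's strand, and capitals mark CCAAT (or its complement ATTGG) and TTTGAA (or its complement TTCAAA).
CCNA2: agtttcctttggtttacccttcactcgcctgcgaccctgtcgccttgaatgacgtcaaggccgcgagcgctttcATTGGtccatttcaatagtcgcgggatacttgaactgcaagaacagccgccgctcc
CCNB1: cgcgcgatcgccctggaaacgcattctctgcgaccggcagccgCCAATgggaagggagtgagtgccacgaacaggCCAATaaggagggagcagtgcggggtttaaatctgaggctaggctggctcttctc
CCNB2: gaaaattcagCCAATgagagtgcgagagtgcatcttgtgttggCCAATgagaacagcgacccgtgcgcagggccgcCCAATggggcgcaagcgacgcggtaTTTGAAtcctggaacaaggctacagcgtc
PLK1: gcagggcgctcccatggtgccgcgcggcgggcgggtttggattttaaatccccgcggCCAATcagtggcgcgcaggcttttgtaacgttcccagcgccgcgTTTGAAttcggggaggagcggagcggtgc
BUB1: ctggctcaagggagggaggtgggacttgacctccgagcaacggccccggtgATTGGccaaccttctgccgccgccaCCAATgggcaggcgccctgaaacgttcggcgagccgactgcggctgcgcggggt
CDC20: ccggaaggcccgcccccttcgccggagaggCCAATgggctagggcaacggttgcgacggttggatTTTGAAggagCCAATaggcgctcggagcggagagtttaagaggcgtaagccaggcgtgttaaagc

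The CCNB2 stretch held 3 NF-Y boxes followed by a homology region at position -29, counting the annotated start as 0. PLK1 had a single box and a homology region at that same position. BUB1, CCNB1 and CCNA2 held boxes without a TTTGAA match in the printed bases, and no match says only that these letters are not there. Over the 42 windows, TTTGAA was found in 27 (64.3%), against 15.2% of all 35116 RefSeq windows of this length. CCAAT was found in 31 (73.8%), against 34.6% of all windows, and at least 2 copies in 42.9% against 10.8%. Windows with both elements made up 52.4% of those of the mitosis genes and 5.9% of all. TTCGAA, a second form of the homology region, was in 7.14% against 1.45%, and CCGGAA, an ETS core of the kind FLI can bind, in 23.8% against 17.2%. All motifs were searched on both strands, and matches were allowed to share bases. In DAF against iEF, the fitted log2 fold changes described below had a median of -0.64 for the 24 genes with TTTGAA (range -0.80 to -0.27) and -0.54 for the 9 without it (range -0.71 to 0.02). The other motifs had the smaller fall in the genes that held them, with medians of -0.58 for the 27 genes with CCAAT and -0.60 for the 6 without, and of -0.55 for the 9 with CCGGAA and -0.60 for the 24 without. In WT-EF against iEF the medians by TTTGAA were -0.24 with it and -0.21 without. These matches are a description of sequence and were not tested against the expression values.

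**Figure D3:**
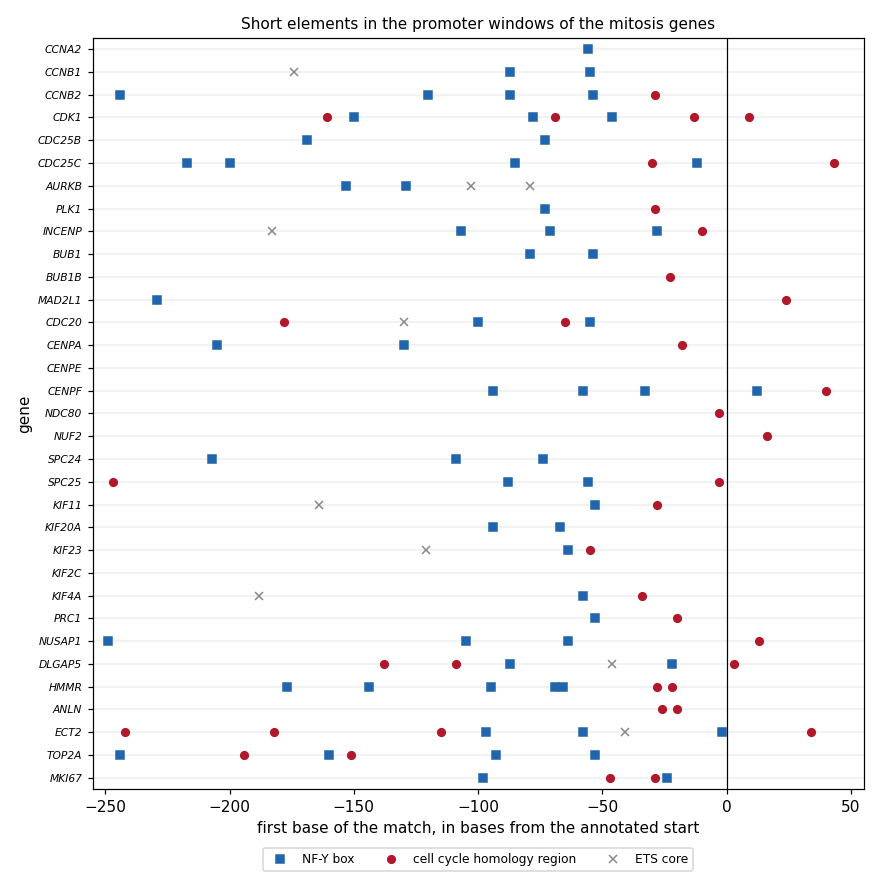
Matches of CCAAT (NF-Y box, squares), TTTGAA (cell cycle homology region, circles) and CCGGAA (ETS core, crosses) in the windows of the 33 genes, by distance in bases from the annotated start, which is 0; matches from all windows of a gene are drawn on its row. Most squares lie upstream of the start and many circles lie close to it, and the rows of CENPE and KIF2C are empty.

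Fold changes and p-values below come from edgeR's quasi-likelihood test over 28793 genes, with the replicate number as a block and Benjamini-Hochberg adjustment. A gene is said to be higher or lower where its adjusted p was under 0.05. The WT-EF, Δ22, DAF and iLuc comparisons against iEF share the same 3 iEF libraries, so their values for a gene are not independent of each other.

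With DAF, nearly the whole mitotic program was lower than in unrescued iEF cells. Of the 40 genes 38 fell and none rose, where 5.00% of all genes tested were higher and 6.19% lower. Of genes expressed at least as strongly as the weakest gene of the set, 7.72% were higher and 14.8% lower. The median log2 fold change was -0.60, a 1.51-fold lower level, against 0.00 over all genes, and none of the 40 passed 2-fold. The 2 genes without a call were CDC25B, at 0.02 (95% interval -0.16 to 0.20), and MKI67, the proliferation antigen Ki-67, at -0.27 (-0.56 to 0.01). For the 38 that fell, the DAF libraries did not overlap the iEF libraries. The share of all genes without such overlap was not computed. No gene was higher in any of the tools run, with 0 at an unadjusted p under 0.05 by edgeR, by DESeq2 and by limma. DESeq2 also called 38 lower, and limma on the ComBat-adjusted values called 30.

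The CDK1 and cyclin group fell in 5 of 6 genes. CCNB1 (chr5:68462962-68474072, hg19), the main mitotic cyclin, was at 674.4, 600.7 and 691.8 CPM in iEF and at 451.6, 458.8 and 348.1 CPM in DAF. Every DAF library was below every iEF library, and the log2 fold change was -0.65 ± 0.13 (SE, edgeR adjusted p = 0.00444). CCNB2 fell by 0.71 (SE 0.15) and CCNA2, cyclin A2 of S and G2 phase, by 0.48 (SE 0.12) on the same log2 scale. CDK1 (chr10:62538089-62554610) was at 264.5, 247.9 and 291.3 CPM in iEF and at 214.6, 225.5 and 173.9 CPM in DAF, a change of -0.40 (edgeR adjusted p = 0.0444). The CDK1 call was lost in 17 of 26 alternatives. CDC25C fell by 0.67 on the log2 scale. Its relative CDC25B, which activates CDK1 at the centrosome, stood apart at 93.1, 76.8 and 80.9 CPM in DAF against 89.7, 77.7 and 79.8 CPM in iEF, with the groups overlapping.

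All 5 kinases and passenger proteins were lower. AURKB (chr17:8108051-8113918), the catalytic subunit of the chromosomal passenger complex, was at 63.2, 58.2 and 70.2 CPM in iEF and at 39.3, 37.7 and 40 CPM in DAF. The DAF libraries lay close together and far from iEF, at -0.71 ± 0.09 (SE, edgeR adjusted p = 0.000276). BIRC5, which encodes survivin, another subunit of that complex, fell by 0.78 (SE 0.14, edgeR adjusted p = 0.00211), and INCENP, its scaffold, by 0.40. AURKA, the spindle pole kinase, fell by 0.66 and PLK1, which acts at entry, spindle and cytokinesis, by 0.58. The exons of PLK1 overlap a noncoding gene on the opposite strand over 11.62% of their bases, and how the counting treated strand is not given in the sources used here.

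Checkpoint genes fell in 5 of 5 and their effector partners CDC20 and UBE2C in 2 of 2. MAD2L1 (chr4:120976778-120988013), which encodes the checkpoint protein MAD2, was at 179.6, 168.9 and 200.3 CPM in iEF and at 111.4, 111.1 and 93.4 CPM in DAF. This was the largest fall of the set together with SPC25, a 1.74-fold lower level (log2 -0.80, 95% interval -1.06 to -0.54, edgeR adjusted p = 0.000782). The kinases BUB1 and TTK, also called MPS1, both fell by 0.58 on the log2 scale. BUB1B fell by 0.38 and BUB3 by 0.36, calls that were lost in 9 and 17 of 26 alternatives. CDC20 changed by -0.73 (95% interval -1.08 to -0.38) and UBE2C by -0.70 (-0.98 to -0.41).

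Centromere and kinetochore genes fell in 7 of 7. SPC25 (chr2:169690642-169769881), a subunit of the NDC80 complex that grips microtubules, was at 69.3, 61.1 and 72.2 CPM in iEF and at 44.4, 41.2 and 31.9 CPM in DAF (log2 -0.80, 95% interval -1.14 to -0.46). The other subunits of that complex changed by -0.73 (NUF2), -0.68 (NDC80) and -0.46 (SPC24). Thus all 4 subunits were lower. CENPA, the centromeric histone, fell by 0.69, CENPF by 0.64 and the kinesin CENPE by 0.41 on the log2 scale. The calls of CENPE and SPC24 were lost in 18 and 13 of 26 alternatives.

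Spindle motors and assembly factors fell in 10 of 10. Among the kinesins the changes were close together, from -0.60 for KIF2C, a microtubule depolymerase, to -0.50 for KIF11, the bipolar spindle motor Eg5, and KIF23, of the central spindle. HMMR (chr5:162887209-162918947), a spindle assembly factor, was at 133.2, 118.1 and 145.5 CPM in iEF and at 76.6, 96.8 and 66.7 CPM in DAF, a log2 fold change of -0.74 ± 0.14 (SE). DLGAP5, which stabilizes kinetochore fibers, fell by 0.69, NUSAP1 by 0.65, PRC1 by 0.53 and TPX2, the activator of AURKA, by 0.47. PRC1 shares 34.26% of its exonic bases with an antisense gene, PRC1-AS1, so its counts are less certain. The cytokinesis genes ANLN and ECT2 fell by 0.60 and 0.49, and TOP2A, the topoisomerase that untangles sister chromatids, by 0.64. FOXM1 (chr12:2966846-2986340), the transcription factor of the G2/M program, was at 62.6, 47.4 and 61.3 CPM in iEF and at 38.2, 41.2 and 31.9 CPM in DAF, and changed by -0.62 ± 0.13 (SE, edgeR adjusted p = 0.00602). Its exons overlap ITFG2 on the other strand over 15.9% of their bases.

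The direction was the same in the 3 replicate sets, but the size was not. The median log2 ratio of DAF to iEF over the 40 genes was -0.53 in set 1, -0.29 in set 2 and -0.94 in set 3. In all 3 sets 38 genes were lower, and the share of all genes that did so was not computed. The number of genes lower was 19 without iEF replicate 3, 18 without DAF replicate 3, 18 without the libraries of replicate 1 and 22 without those of replicate 3. It was between 26 and 38 in every other alternative run. The 14 genes that were lower in all 26 alternatives included CCNB1, AURKB, MAD2L1 and HMMR.

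After rescue with Δ22, estimates for the mitosis genes lay below iEF, but few passed the test. Fitted values were under 0 for 40 of 40 genes, with a median log2 fold change of -0.42 against 0.01 over all genes, and 39 of the genes were lower in all 3 replicate sets. Only 2 passed the adjusted threshold, and 38 had an unadjusted p under 0.05. By the adjusted threshold, 0.472% of all genes tested were higher and 0.830% lower. Among those at or above the level of the weakest gene of the set, these shares were 0.888% and 2.20%. Shares of all genes were not computed for the unadjusted p or for a fall in all 3 replicate sets. Since Δ22 replicate 1 was highest for all 40 genes, the genes do not count as independent observations. MAD2L1 was at 145.6, 124.5 and 109.7 CPM in Δ22 and changed by -0.54 (95% interval -0.80 to -0.27, edgeR adjusted p = 0.0472). NDC80 (chr18:2571556-2616634) was at 198.1, 175.6 and 206.7 CPM in iEF and 163.4, 130.0 and 115.6 CPM in Δ22, a change of -0.51 (-0.77 to -0.26, edgeR adjusted p = 0.0476). For both genes the groups did not overlap, and the calls were lost in 17 (MAD2L1) and 19 (NDC80) of 26 alternatives. CDC25B was nearest to 0, at -0.07 (-0.25 to 0.11), and SPC25 farthest, at -0.65 (-0.99 to -0.31, edgeR adjusted p = 0.0615).

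How many genes were lower in Δ22 depended on the method and on single libraries. DESeq2's Wald test called 21, the fit without a filter on low counts 35, the fit of the 6 Δ22 and iEF libraries 4, and limma on the ComBat-adjusted values called 4. The fit without the replicate block called none. Without Δ22 replicate 1, the library that was highest for all 40 genes, 17 were lower, and without WT-EF replicate 3 there were 12. Leaving out WT-EF replicate 1 gave 5 and iLuc replicate 3 gave 4. None was lower without iEF replicate 1, 2 or 3, Δ22 replicate 2 or 3, DAF replicate 1 or 2 or iLuc replicate 2, and 1 without WT-EF replicate 2 or DAF replicate 3. No gene was higher by edgeR, with 0 at an unadjusted p under 0.05, and none by DESeq2 or limma. Median log2 ratios by set were -0.21, -0.27 and -0.76.

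**Figure D4:**
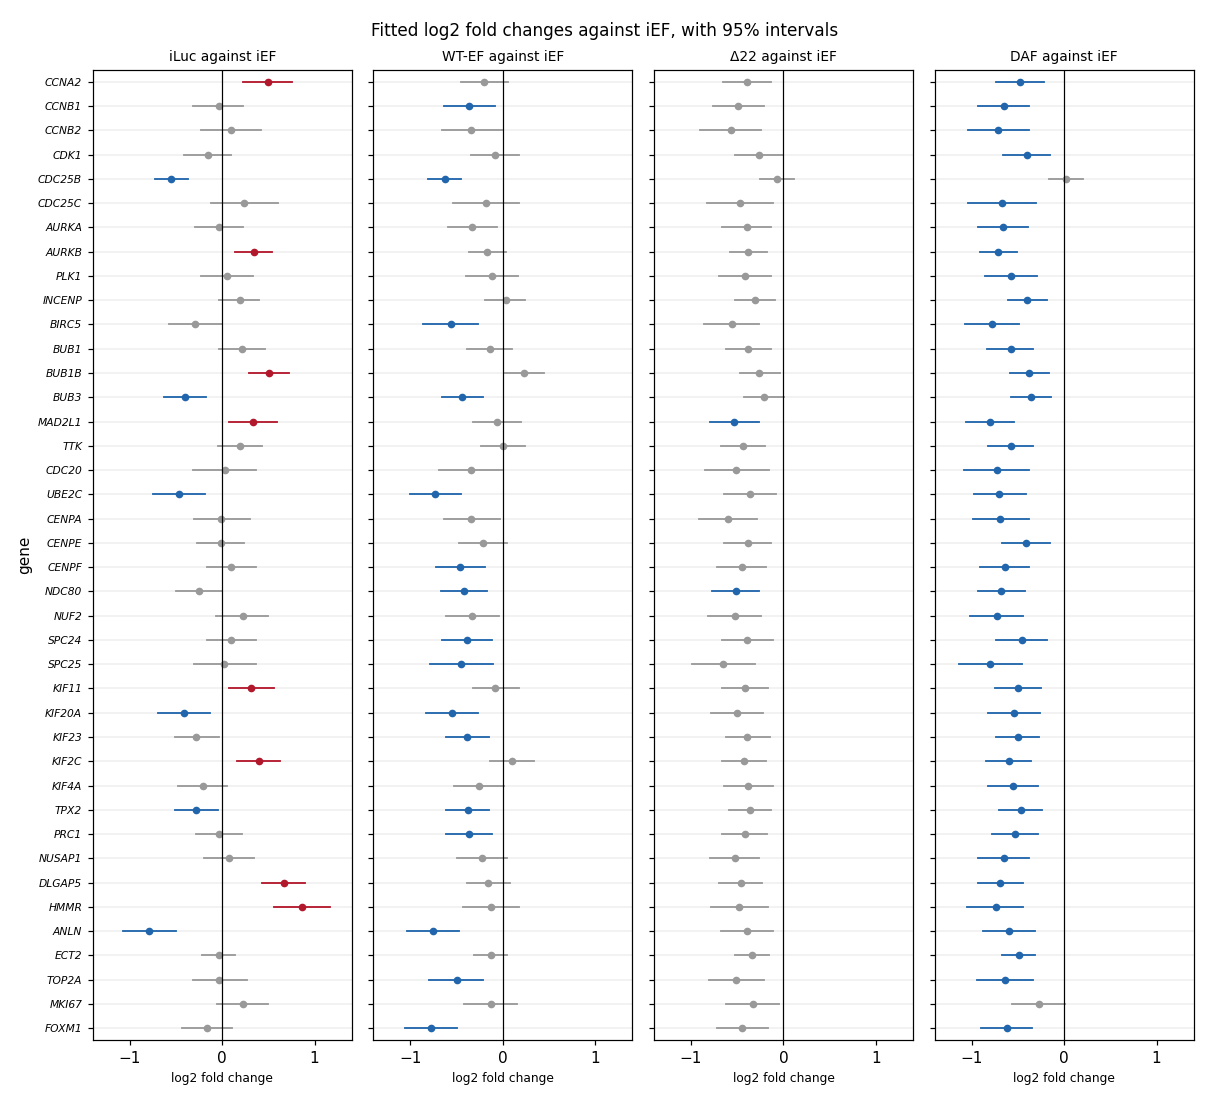
Fitted log2 fold changes of the 40 genes against iEF for iLuc, WT-EF, Δ22 and DAF; points are estimates, bars 95% intervals, red is higher, blue lower and gray not called at an adjusted p of 0.05. In the DAF panel 38 points are blue, in the Δ22 panel 40 points lie left of 0 with 2 called, and in the iLuc panel points lie on both sides, from ANLN at -0.79 to HMMR at 0.86.

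After rescue with WT-EF, part of the set was lower than in iEF. None rose and 16 fell (40% of the set), against 12.9% higher and 17.0% lower among all genes tested. Among genes expressed at least as strongly as the weakest of the set, 19.1% were higher and 33.2% lower. The share of the set that fell was thus close to that of genes at its level. The median log2 fold change was -0.33, against -0.01 over all genes. FOXM1 had the largest change, at 41.2, 29.9 and 29.6 CPM in WT-EF against 62.6, 47.4 and 61.3 CPM in iEF, a 1.72-fold lower level (log2 -0.78, 95% interval -1.06 to -0.50, edgeR adjusted p = 0.00032). ANLN (chr7:36429430-36493400) was at 482.1, 400.6 and 383.6 CPM in WT-EF and 769.9, 543.8 and 820.1 CPM in iEF, and changed by -0.76 ± 0.13 (SE, edgeR adjusted p = 0.00053). In both genes every WT-EF library was below every iEF library. UBE2C (chr20:44441215-44445596) fell from 159.8, 127.6 and 160.7 CPM to 98.5, 98.1 and 74.4 CPM (log2 -0.73, edgeR adjusted p = 0.000642). CDC25B (chr20:3767419-3786768) was at 63.3, 46.0 and 51.5 CPM in WT-EF, a change of -0.63 ± 0.08 (SE, edgeR adjusted p = 5.05e-05). For CDC25B too, every WT-EF library was below every iEF library, and the estimate for DAF against iEF was 0.02.

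Of the kinetochore genes 4 of 7 were lower in WT-EF, with CENPF at -0.46, SPC25 at -0.45, NDC80 at -0.42 and SPC24 at -0.39 on the log2 scale. Of these calls, SPC25 was lost in 21 of 26 alternatives, SPC24 in 16, NDC80 in 8 and CENPF in 5. The remaining genes that fell were BIRC5 (-0.56), KIF20A (-0.55), a kinesin of cytokinesis, TOP2A (-0.50), BUB3 (-0.44), KIF23 (-0.39), TPX2 (-0.38), CCNB1 (-0.37) and PRC1 (-0.37). The calls of CCNB1 and PRC1 were each lost in 19 of 26 alternatives. Several genes central to mitosis were not called. CDK1 was at -0.08 (95% interval -0.34 to 0.18), PLK1 at -0.12 (-0.40 to 0.16), TTK at 0.00 (-0.24 to 0.24), MAD2L1 at -0.06 (-0.32 to 0.20) and BUB1B at 0.23 (0.02 to 0.44). BUB1B, the gene of the checkpoint protein BUBR1, was the 1 gene higher at an unadjusted p under 0.05. DESeq2 called 0 genes higher and 12 lower, and limma on the ComBat-adjusted values called 3 higher and 4 lower. The number lower was 7 without iEF replicate 3, 7 without WT-EF replicate 1, 7, 10 and 9 without the libraries of replicates 1, 2 and 3, and 11 to 17 without any other library. Without WT-EF replicate 1, 1 gene was higher. Scaling by library totals alone, which moved the median of all genes by 0.23 on the log2 scale, left 4 genes lower and 2 higher.

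In iLuc, where endo-EF was never depleted, mitosis genes moved both ways against iEF. There were 8 genes higher (20% of the set) and 6 lower (15%), where 19.5% of all genes tested were higher and 22.1% lower, and the median log2 fold change was 0.03 against 0.04 over all genes. Among genes expressed at least as strongly as the weakest of the set, 26.4% were higher and 39.7% lower.

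HMMR and DLGAP5 had the largest rises in iLuc. They are 2 of the 5 spindle assembly genes, of which 1, TPX2, was lower and 2 were not called. HMMR was at 234.4, 257.5 and 234.3 CPM in iLuc and at 133.2, 118.1 and 145.5 CPM in iEF, 1.82-fold higher (log2 0.86, 95% interval 0.56 to 1.17, edgeR adjusted p = 0.000162). DLGAP5 (chr14:55614830-55658326) was at 479.7, 460.9 and 488.3 CPM against 303.1, 296.7 and 299.4 CPM (log2 0.67 ± 0.11, SE, edgeR adjusted p = 0.000156). For both the groups were far apart and tight. The checkpoint genes BUB1B (0.51) and MAD2L1 (0.33), CCNA2 (0.49), the depolymerase KIF2C (0.40), AURKB (0.34) and KIF11 (0.31) were also higher on the log2 scale. The 6 lower genes were ANLN (-0.79), CDC25B (-0.55), UBE2C (-0.47), KIF20A (-0.41), BUB3 (-0.40) and TPX2 (-0.28). ANLN was at 431.1, 416.8 and 385.6 CPM in iLuc, below every iEF library. TPX2 was the 1 called gene whose groups overlapped, and its call was lost in 17 of 26 alternatives. The number higher was 4 without iLuc replicate 3, 5 without iLuc replicate 2 or iEF replicate 2, and 4 without the libraries of replicate 1 or of replicate 2. The number lower was 3 without iLuc replicate 1 or iEF replicate 3, 2 without the libraries of replicate 1, and 4 without those of replicate 2 or without iLuc replicate 2. This split shifted with the scaling: scaled by library totals alone, which moved the median of all genes by 0.21 on the log2 scale, 13 genes were higher and 2 lower, and limma on the ComBat-adjusted values gave 20 higher and 2 lower.

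Set directly against iLuc, WT-EF cells had 13 mitosis genes lower and none higher. Over all genes tested, 9.03% were lower and 10.7% higher, and 22.3% were higher and 15.8% lower among genes at or above the level of the weakest of the set. The median log2 fold change was -0.31, against -0.01 over all genes. HMMR, at 104.1, 141.2 and 120.9 CPM in WT-EF, was 1.99-fold lower (log2 -0.99, 95% interval -1.29 to -0.69, edgeR adjusted p = 0.000244). DLGAP5 was at 246.8, 293.0 and 267.1 CPM (log2 -0.83, edgeR adjusted p = 0.000142). For both genes every WT-EF library was below every iLuc library, and against iEF the WT-EF values were -0.13 and -0.16 on the log2 scale, neither of them called. CCNA2 (chr4:122737599-122745038) was at 149.9, 166.7 and 121.3 CPM against 238.0, 221.6 and 237.1 CPM in iLuc (log2 -0.68, edgeR adjusted p = 0.00114). FOXM1 fell by 0.61 (SE 0.13), at 52.9, 50.9 and 48.8 CPM in iLuc. The other genes lower were CENPF (-0.55), NUF2 (-0.54), AURKB (-0.51), SPC24 (-0.49), TOP2A (-0.48), SPC25 (-0.47), MAD2L1 (-0.39), KIF11 (-0.39) and BUB1 (-0.36). The calls of SPC25, BUB1 and MAD2L1 were lost in 19, 17 and 15 of 26 alternatives. ANLN and CDC25B, which were lower than iEF in both iLuc and WT-EF, were at 0.03 (95% interval -0.26 to 0.31) and -0.08 (-0.26 to 0.10) between WT-EF and iLuc. No gene was higher at an unadjusted p under 0.05 by edgeR, and none by DESeq2 or limma. The number lower was 5 without iLuc replicate 2 or iLuc replicate 3, 6 without WT-EF replicate 1, 8 without Δ22 replicate 2, and 5 and 3 without the libraries of replicate 1 and of replicate 2.

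The constructs of WT-EF and DAF differ in amino-terminal tyrosines of the EWS domain. Where mitosis genes differed between these cells, WT-EF was mostly the higher. The FLI1 message was also lower in WT-EF than in DAF (log2 -0.47), and its part in these differences was not tested. In WT-EF 15 genes were higher (37.5% of the set) and 1 lower (2.5%). Among all genes tested 12.4% were higher and 16.1% lower, and 23.6% and 31.4% among genes at or above the level of the weakest of the set. Called genes were thus not more frequent in the set than at its level, but their direction differed. The median log2 fold change was 0.33, against -0.01. Checkpoint genes were higher in 4 of 5. MAD2L1 was at 163.2, 203.3 and 163.3 CPM in WT-EF and at 111.4, 111.1 and 93.4 CPM in DAF, 1.68-fold higher (log2 0.75, 95% interval 0.48 to 1.01, edgeR adjusted p = 0.000357). BUB1B (chr15:40453224-40513324) was at 333.6, 368.6 and 417.6 CPM against 240.1, 260.5 and 232.0 CPM, a difference of 0.61 ± 0.10 (SE, edgeR adjusted p = 0.000387). TTK was higher by 0.58 and BUB1 by 0.44 on the log2 scale, whereas BUB3 was at -0.08 (-0.30 to 0.15).

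The motor KIF2C (chr1:45205490-45233439) was at 172.7, 200.2 and 188.9 CPM in WT-EF and at 122.9, 126.3 and 98.0 CPM in DAF (log2 0.70, edgeR adjusted p = 0.000287). HMMR (0.61), AURKB (0.54), DLGAP5 (0.53), CDC25C (0.49), PLK1 (0.46), KIF11 (0.43), NUSAP1 (0.43), INCENP (0.42), NUF2 (0.41) and ECT2 (0.36), which acts in cytokinesis, were the other genes higher. For all 15 the groups did not overlap, though the share of all genes without overlap was not computed. The CDC25C call was lost in 13 of 26 alternatives. CDC25B went the other way, at 63.3, 46.0 and 51.5 CPM in WT-EF and 93.1, 76.8 and 80.9 CPM in DAF, 1.57-fold lower (log2 -0.65 ± 0.08, SE, edgeR adjusted p = 5.82e-05), and this call stood in 26 of 26 alternatives. FOXM1 was at -0.16 (95% interval -0.44 to 0.12), ANLN at -0.16 (-0.45 to 0.12) and UBE2C at -0.04 (-0.32 to 0.25). These 3 fell with WT-EF and with DAF against iEF. Without DAF replicate 3 the number higher was 8, and without any other library 11 to 16. Scaling by library totals alone moved the median of all genes by 0.15 on the log2 scale and gave 26 higher and 1 lower.

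The main test separated DAF from Δ22 in no mitosis gene. By edgeR 0 genes were higher and 0 lower, against 0.948% and 0.379% of all genes tested (1.31% and 0.858% of those at or above the level of the weakest gene of the set), with 0 higher and 3 lower at an unadjusted p under 0.05. DESeq2 called 1 lower, limma 0, and the fit of the 6 DAF and Δ22 libraries 6. The median log2 fold change was -0.15, against -0.02 over all genes, and 38 of 40 estimates were under 0. Intervals over the 40 genes ran from -0.62 to 0.34, which leaves room for differences of up to 1.53-fold, so that the values do not show the constructs to act alike. AURKB had the smallest adjusted p, at 54.7, 43.4 and 49.0 CPM in Δ22 against 39.3, 37.7 and 40 CPM in DAF (log2 -0.33, 95% interval -0.53 to -0.13, edgeR adjusted p = 0.132).

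**Figure D5:**
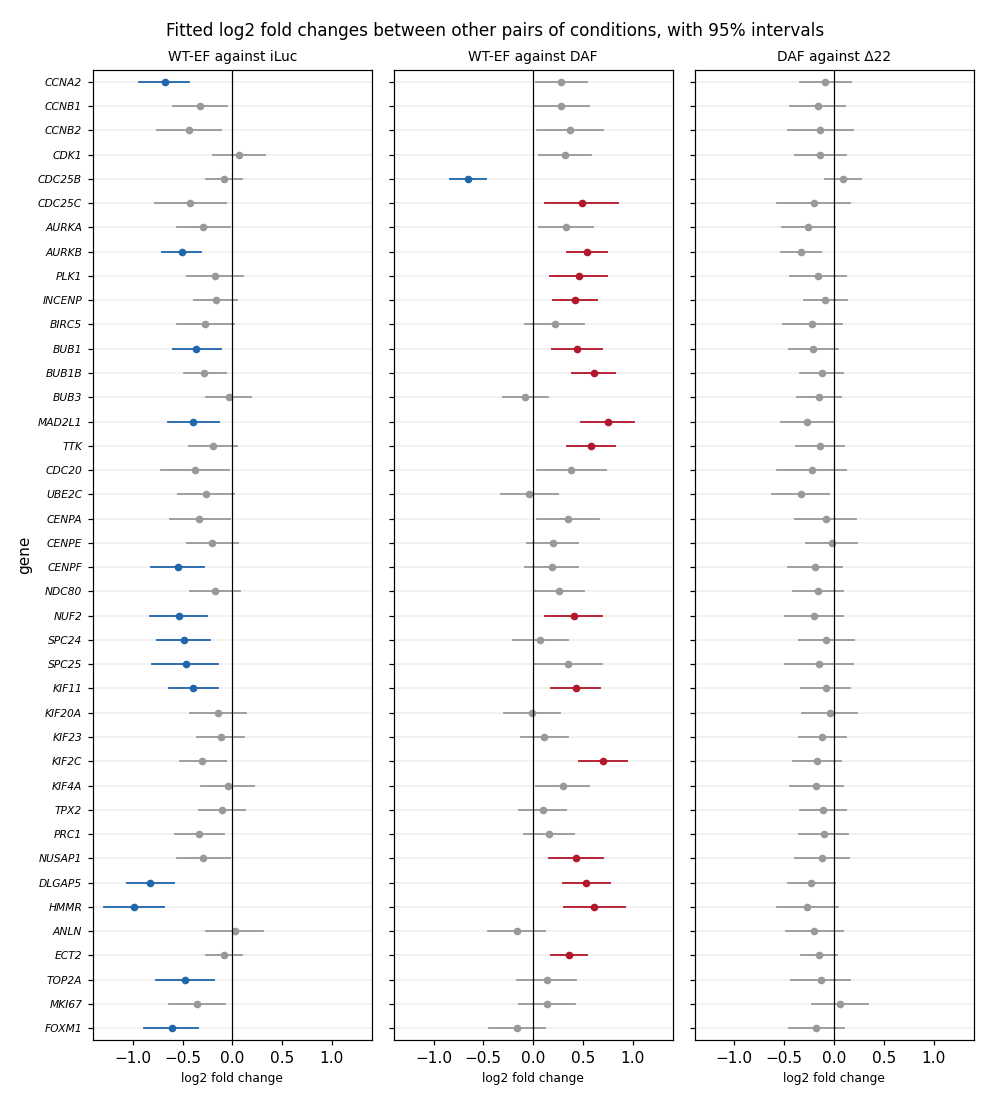
Fitted log2 fold changes of the 40 genes for WT-EF against iLuc, WT-EF against DAF and DAF against Δ22; points are estimates, bars 95% intervals, red is higher, blue lower and gray not called at an adjusted p of 0.05. WT-EF against DAF has 15 red points and CDC25B as the 1 blue point, and DAF against Δ22 has no colored point.

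Neighbouring gene lists of the cell cycle were read in the same fits, beside the backgrounds above. In DAF against iEF, 27 of 33 other G2/M genes, 32 of 33 DNA replication genes, 12 of 17 condensin and cohesin genes and 11 of 20 genes of the inner kinetochore and its outer partners were lower, and none of them higher. Examples are KIF15, a spindle kinesin, at -0.74 ± 0.11 (SE), NCAPD2, a condensin subunit, at -0.92 ± 0.11, and MCM6, of the replicative helicase, at -0.76 ± 0.09. Among the subunits and regulators of the anaphase-promoting complex 3 of 17 were lower, FBXO5 the most certain at -0.67 ± 0.12. Of 13 MuvB, E2F and MYB factors 5 were lower, and of 11 tubulins 3. With Δ22, 14 of 33 replication genes, 2 of 33 other G2/M genes and 1 of 17 condensin and cohesin genes were lower, and no gene of the other lists was called.

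For WT-EF and iLuc, the replication and other G2/M lists are given. With WT-EF 6 replication genes were higher than iEF and 4 lower, with a median log2 fold change of 0.07, and with iLuc 22 were higher and 4 lower, with a median of 0.33. E2F2, an E2F activator, was higher by 1.97 ± 0.16 (SE) in iLuc and by 1.41 ± 0.16 in WT-EF. Other G2/M genes were lower in 15 of 33 with WT-EF and higher in none, with a median of -0.21, and CEP55, of the midbody, was at -0.88 ± 0.12. In iLuc against iEF, 5 of these 33 were higher and 8 lower. Between WT-EF and DAF, 29 of 33 replication genes were higher and 0 lower, with a median of 0.60, and 11 of 33 other G2/M genes were higher and 1 lower, with a median of 0.26. Against iLuc, WT-EF had 1 of 33 replication genes higher and 18 lower, with a median of -0.31. MYBL2, which encodes B-MYB, the MYB partner of MuvB, was higher in WT-EF than in iEF by 0.82 ± 0.09 (SE), and than in DAF by 0.98 ± 0.09. Its relative MYBL1 was lower in WT-EF than in iEF by 2.37 ± 0.19 on the log2 scale and in iLuc than in iEF by 3.02 ± 0.20.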

How the data were processed

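Read counts per gene were deposited for 15 libraries. Per the paper's methods, the authors mapped read pairs against build hg19 using STAR and made the counts with htseq-count in intersection-strict mode. The submitters' processing notes name STAR 2.5.1b, which is not the release the paper names. The authors also deposited ComBat-adjusted values, decimal numbers treated here as a score and used in 1 alternative, and a table of their own fold changes and p-values, which was not used. In the count table, 3 columns matched no sample and were left out.

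Counts were tested with edgeR 4.0.16 in R 4.3.3 (quasi-likelihood, trimmed-mean scaling, 1 fit of 15 libraries, genes averaging at least 1 count per library), with the replicate number as a block because the study adjusted each replicate set as a batch. Deviations from group means correlated with a median r of 0.147 over 30 library pairs of the same number and -0.0797 over 60 others. Replicates differed beyond sampling noise in all 15 pairs. The labels do not name separate cultures, while the paper draws its scheme of knockdown, rescue and selection as that of a single replicate. The p-values measure the spread between libraries of 1 cell line. The steps were tested on simulated counts. Symbols came from a gene name table that matched 55538 of 57820 identifiers, and positions and exons from GENCODE lifted to GRCh37 (hg19). Alternatives used DESeq2 1.42.0, limma 3.58.1, other filters and scalings, and fits leaving libraries out; scaling by library totals alone was added after seeing the data. Figures were drawn with matplotlib 3.10.9 in Python 3.11.15.

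The 40 genes, the lists and the promoter motifs were chosen with earlier results of these data known. All 40 genes are covered; from the other lists, the genes named are among the 2 with the smallest adjusted p in that comparison or the 2 with the largest change in iLuc against iEF. Promoter windows were missing for BIRC5, UBE2C, FOXM1, AURKA, TPX2, BUB3 and TTK.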

Additional observations from a re-analysis of the deposited data

How the results depend on the processing

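Each comparison was recomputed under 26 alternatives. For a single gene, 1 value turned its sign with a call: ECT2 in iLuc against iEF was 0.18 by limma on the ComBat-adjusted values, against -0.04. Numbers of genes higher or lower that moved by over 1.5 times follow, and the cause was not tested. By limma on the ComBat-adjusted values, iLuc against iEF had 20 higher and 2 lower, WT-EF against iEF 3 higher and 4 lower, Δ22 against iEF 4 lower and WT-EF against DAF 26 higher. With library totals alone these were 13 and 2, 2 and 4, 0, and 26. With the 6 libraries compared, keeping the replicate block, iLuc against iEF had 10 lower, WT-EF against iEF 9 lower, Δ22 against iEF 4 lower and DAF against Δ22 6 lower. Without the low count filter, Δ22 against iEF had 35 lower, WT-EF against iLuc 20 lower and WT-EF against DAF 23 higher; with a filter of 10 counts, Δ22 against iEF had 0 lower and WT-EF against iEF 1 higher. DESeq2's Wald test gave 21 lower for Δ22 against iEF and 1 for DAF against Δ22, and its size factors 0 for Δ22 against iEF.

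Without the replicate block, Δ22 against iEF had 0 lower instead of 2, DAF against iEF 33 instead of 38, WT-EF against iEF 13 instead of 16, and WT-EF against DAF 14 higher instead of 15. Only the number for Δ22 against iEF moved by over 1.5 times without the block.

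With libraries or replicate numbers left out, iLuc against iEF ranged from 4 to 10 higher and 2 to 8 lower, WT-EF against iEF from 0 to 1 higher and 7 to 17 lower, Δ22 against iEF from 0 to 17 lower, DAF against iEF from 18 to 38 lower, WT-EF against iLuc from 3 to 15 lower and WT-EF against DAF from 8 to 16 higher. DAF against iEF kept every estimate of its called genes below 0 in these fits. Every gene had at least 426 reads in each library, but counting error was not set against the spread between libraries gene by gene. The intervals rest on 3 libraries per condition and on a spread estimated in 1 fit of all 15 libraries.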
